A study of Mus musculus with 6 samples.

Results

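Complement and coagulation factors are plasma proteases, cofactors and inhibitors that the liver makes and secretes. The 41 genes described here were chosen by name as liver-made complement and clotting proteins, and all 41 were found among the 48432 genes of the deposited table. RNA was sequenced from hepatocytes of FVB mice as stranded poly(A) libraries, 6 samples in 3 groups of 2. The DDC fed group held adults given a diet with DDC, a porphyrin-inducing compound that injures liver and bile ducts, for 4 weeks. The E18 group held hepatocytes of embryonic day 18, each sample a pool of about 8 embryos, and the normal fed group held adults on normal chow. All groups share the FVB strain, and the labels name no transgene or other agent. The labels give neither adult ages nor whether separate mice were used for each adult sample, so a p-value covers the variation among the libraries at hand, which may be technical. Within a group the libraries are called sample 0 and sample 1 after the numbers in the column names. Values are TPM, transcript abundances per length that sum to 1000000 in each sample, and sequencing depth is unknown because no counts were given.

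Complement is set off by antibody through the classical pathway, by sugar-binding lectins through the lectin pathway, or by spontaneous turnover of C3 through the alternative pathway. All routes cleave C3 and C5, after which C6 to C9 assemble a pore in the target membrane. Clotting is a relay of proteases, several of which need vitamin K-dependent carboxylation, that ends when thrombin turns fibrinogen into fibrin, and plasmin later dissolves the clot. Hepatocytes are the main source of most of these proteins, and liver factors such as HNF1, HNF4 and C/EBP, with STAT3 in the acute phase, are known regulators of many of their genes.

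Promoter windows of 6 genes are shown because the results below turn on them. C8a and C8b are neighbours whose levels moved apart, as are F11 and Klkb1, and C9 and C4bp had the lowest fold changes at E18. All 6 were chosen after their values and their motif matches had been seen. Each window runs from 250 bases before to 50 bases after the annotated start and comes from RefSeq on GRCm38.p6. The windows are C8a chr4:104876349-104876648 (minus strand), C8b chr4:104766067-104766366 (plus strand), F11 chr8:45261982-45262281 (minus strand), Klkb1 chr8:45294786-45295085 (minus strand), C9 chr15:6445096-6445395 (plus strand) and C4bp chr1:130661569-130661868 (minus strand). Capitals mark matches, on either strand, to the HNF1 motif GTTAAT, the C/EBP motif TTGCNNAA and the STAT3 motif TTCNNNGAA.
C8a: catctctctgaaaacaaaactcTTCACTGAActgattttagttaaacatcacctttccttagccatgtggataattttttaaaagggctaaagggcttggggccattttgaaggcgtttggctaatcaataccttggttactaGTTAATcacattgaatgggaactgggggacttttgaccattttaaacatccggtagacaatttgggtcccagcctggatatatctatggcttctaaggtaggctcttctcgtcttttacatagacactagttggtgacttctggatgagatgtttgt
C8b: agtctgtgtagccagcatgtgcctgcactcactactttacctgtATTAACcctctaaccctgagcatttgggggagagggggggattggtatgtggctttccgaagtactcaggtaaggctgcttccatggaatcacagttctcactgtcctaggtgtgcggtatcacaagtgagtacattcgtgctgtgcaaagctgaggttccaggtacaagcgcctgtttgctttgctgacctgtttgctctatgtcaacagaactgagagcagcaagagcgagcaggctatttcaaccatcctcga
F11: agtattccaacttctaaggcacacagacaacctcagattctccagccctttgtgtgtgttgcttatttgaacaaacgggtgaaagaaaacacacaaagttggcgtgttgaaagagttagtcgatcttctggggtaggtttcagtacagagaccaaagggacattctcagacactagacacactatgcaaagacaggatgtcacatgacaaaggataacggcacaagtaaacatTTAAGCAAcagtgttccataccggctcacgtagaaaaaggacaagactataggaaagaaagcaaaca
Klkb1: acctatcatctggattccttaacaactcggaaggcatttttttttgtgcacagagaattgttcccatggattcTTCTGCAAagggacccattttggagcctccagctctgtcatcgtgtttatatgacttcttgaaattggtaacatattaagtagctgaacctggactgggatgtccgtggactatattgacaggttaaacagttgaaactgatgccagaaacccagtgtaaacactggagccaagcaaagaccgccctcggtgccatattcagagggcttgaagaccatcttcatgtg
C9: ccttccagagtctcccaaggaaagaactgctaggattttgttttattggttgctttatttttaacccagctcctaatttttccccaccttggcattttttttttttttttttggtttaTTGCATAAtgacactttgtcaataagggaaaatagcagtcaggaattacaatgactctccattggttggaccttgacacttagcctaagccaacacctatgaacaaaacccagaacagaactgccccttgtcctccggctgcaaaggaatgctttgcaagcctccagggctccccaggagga
C4bp: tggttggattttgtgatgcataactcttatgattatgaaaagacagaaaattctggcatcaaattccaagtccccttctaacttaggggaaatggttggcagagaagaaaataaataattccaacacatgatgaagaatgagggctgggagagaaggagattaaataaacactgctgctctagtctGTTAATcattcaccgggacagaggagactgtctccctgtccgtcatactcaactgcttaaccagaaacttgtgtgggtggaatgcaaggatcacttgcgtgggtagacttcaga

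The C8a and C8b windows each held GTTAAT, and the C8a window also held TTCNNNGAA. The F11 and Klkb1 windows each held a TTGCNNAA match, 17 and 177 bases before the start. Of the 41 genes, 32 had a window in the table. GTTAAT was found in 10 of these 32 windows (31.2%) and in 7.1% of all 32851 windows. TTGCNNAA was found in 11 of 32 (34.4%) and in 10.8% of all windows, and TTCNNNGAA in 8 of 32 (25%) and in 8.3% of all windows. The Fga, Fgb and C1ra windows each held all 3 motifs. The HNF4 motif CAAAGGTCA was found in the windows of F7 and F9 (6.25%) and in 0.478% of all windows. The HNF4 motif CAAAGTCCA and the C/EBP motif TTGCGCAA were in none of the 32 windows, and in 0.475% and 0.183% of all windows. TTGCGCAA is also a TTGCNNAA match, and no other pair of these motifs contains the other. A match is a description of letters and was not tied to binding in these samples.

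Several facts of the samples bear on every value. Some abundant genes were listed at 0 in both samples of a group while at 100 TPM or more elsewhere, which was treated as a failed estimate. Among the 41 genes this held for C3 in DDC fed samples and for Fga and Fgb at E18, and Alb, the defining hepatocyte gene, was listed at 0 in all 6 samples. The 8 hepatocyte markers not listed at 0 in a group summed to 40838 and 40087 TPM in DDC fed samples, 11796 and 7933 TPM in E18 samples and 57402 and 62784 TPM in normal fed samples. At E18 the 10 neutrophil markers summed to 57067 and 67989 TPM, and the 10 erythroid markers to 12499 and 23584 TPM, while both lists were under 27 TPM in every adult sample. Macrophage markers summed to 906 and 1091 TPM in DDC fed samples, 3439 and 4318 TPM in E18 samples and 99.9 and 89.3 TPM in normal fed samples. Their part in the E18 results below was not tested, and in bulk samples fewer cells of a type and less RNA per cell cannot be told apart. Directions are relative to the TPM total of each sample, and the median of all genes tested stood at 0.45 for DDC fed against normal fed, 1.06 for E18 against normal fed and -0.54 for DDC fed against E18 on the log2 scale. Sample 1 was lower than sample 0 in 33 of 37 genes in DDC fed samples (median log2 difference -0.14), in 36 of 37 at E18 (-0.66) and in 34 of 37 in normal fed samples (-0.74). Across these genes that difference correlated with exon length (Spearman) at -0.16 in DDC fed, 0.02 in E18 and -0.37 in normal fed samples. It ran from -2.34 for Masp1 to 0.59 for C8g in normal fed samples, and its cause was not tested.

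**Figure D1:**
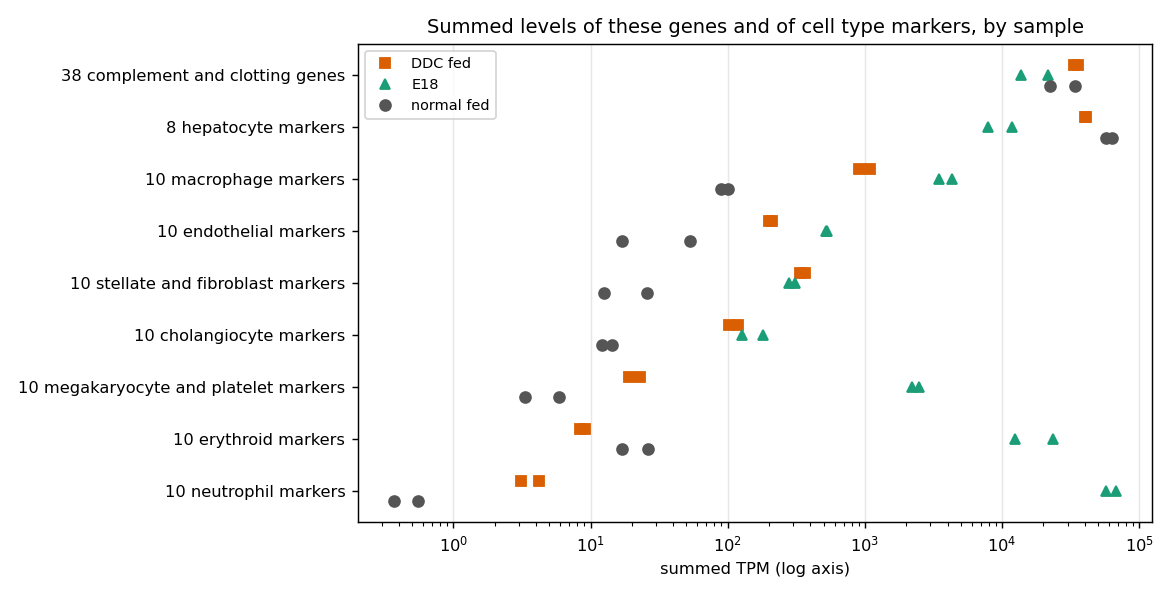
Summed TPM (log axis) of the complement and clotting genes and of cell type marker lists, 1 symbol per sample. Neutrophil, erythroid and megakaryocyte markers were high in both E18 samples, at 57067 and 67989 TPM for neutrophil markers, and under 27 TPM in each adult sample.

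Differences were tested with limma on log2(TPM + 1), with Benjamini-Hochberg adjustment over all genes tested and a threshold of 0.05, and every fold change is on that log2 scale with its standard error. Both comparisons with normal fed adults share the same normal fed samples. At E18, 22 of 38 measured genes fell and 0 rose relative to normal fed adults. Of all genes tested 12.7% fell and 63% rose, and of those with a mean of 10 TPM or more 16.1% fell and 54.5% rose. Both E18 samples were below both normal fed samples in 24 of the 38 genes and above in 0, beside 16.7% below and 69.7% above among all genes. At an unadjusted p under 0.05 the count was again 22 lower and 0 higher. The median was -0.99 for these genes and 1.06 for all genes. The counts depend on the scale. With each sample scaled to its median complement and clotting gene, a scaling added after the data were seen, 9 were lower and 16 higher. It gives each sample the same median of these genes by construction but did not centre their fold changes at 0. Klkb1, next to the median fold change at -1.03, moved to 0.66. Under that scaling 4.06% of all genes tested were lower and 87.6% higher. The 16 were C2, C3, Cfi, Cpb2, F2, F5, F10, F11, F13b, Fgg, Kng1, Masp1, Plg, Pros1, Serpinf2 and Vtn. With median-ratio scaling all of them but F11, Fgg, Masp1, Pros1 and Serpinf2 passed as lower instead, beside 31.9% of all genes. The 9 that fell under the TPM scale and under all 20 alternatives tried were C9, C6, C8a, C8g, C4bp, Mbl1, Mbl2, F7 and F9. Without E18 sample 1 fewer fell, among these genes and among all genes tested.

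Under DDC 3 of 39 measured genes rose (Pros1, Cfb and Cpb2) and 2 fell (C8b and C9) relative to normal fed adults. Of all genes tested 34.3% rose and 3% fell, and of those with a mean of 10 TPM or more 30.4% rose and 2.54% fell. Both DDC fed samples were above both normal fed samples in 16 of the 39 genes and below in 4, beside 62.6% above and 8.95% below among all genes. The median was 0.43 for these genes and 0.45 for all genes. At an unadjusted p under 0.05, 7 were higher and 3 lower. These counts changed when single samples were left out, with 2 residual degrees of freedom left instead of 3. Calls were lost without a DDC fed sample, though fold changes moved little. Without DDC fed sample 0 and sample 1 C8b was -1.63 and -1.58, Cpb2 0.9992 and 0.9916, and Cfb 1.192 and 1.455. More were higher without normal fed sample 0, among these genes and among all genes. The median of all genes was 0.64 without normal fed sample 0 and 0.31 without normal fed sample 1.

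**Figure D2:**
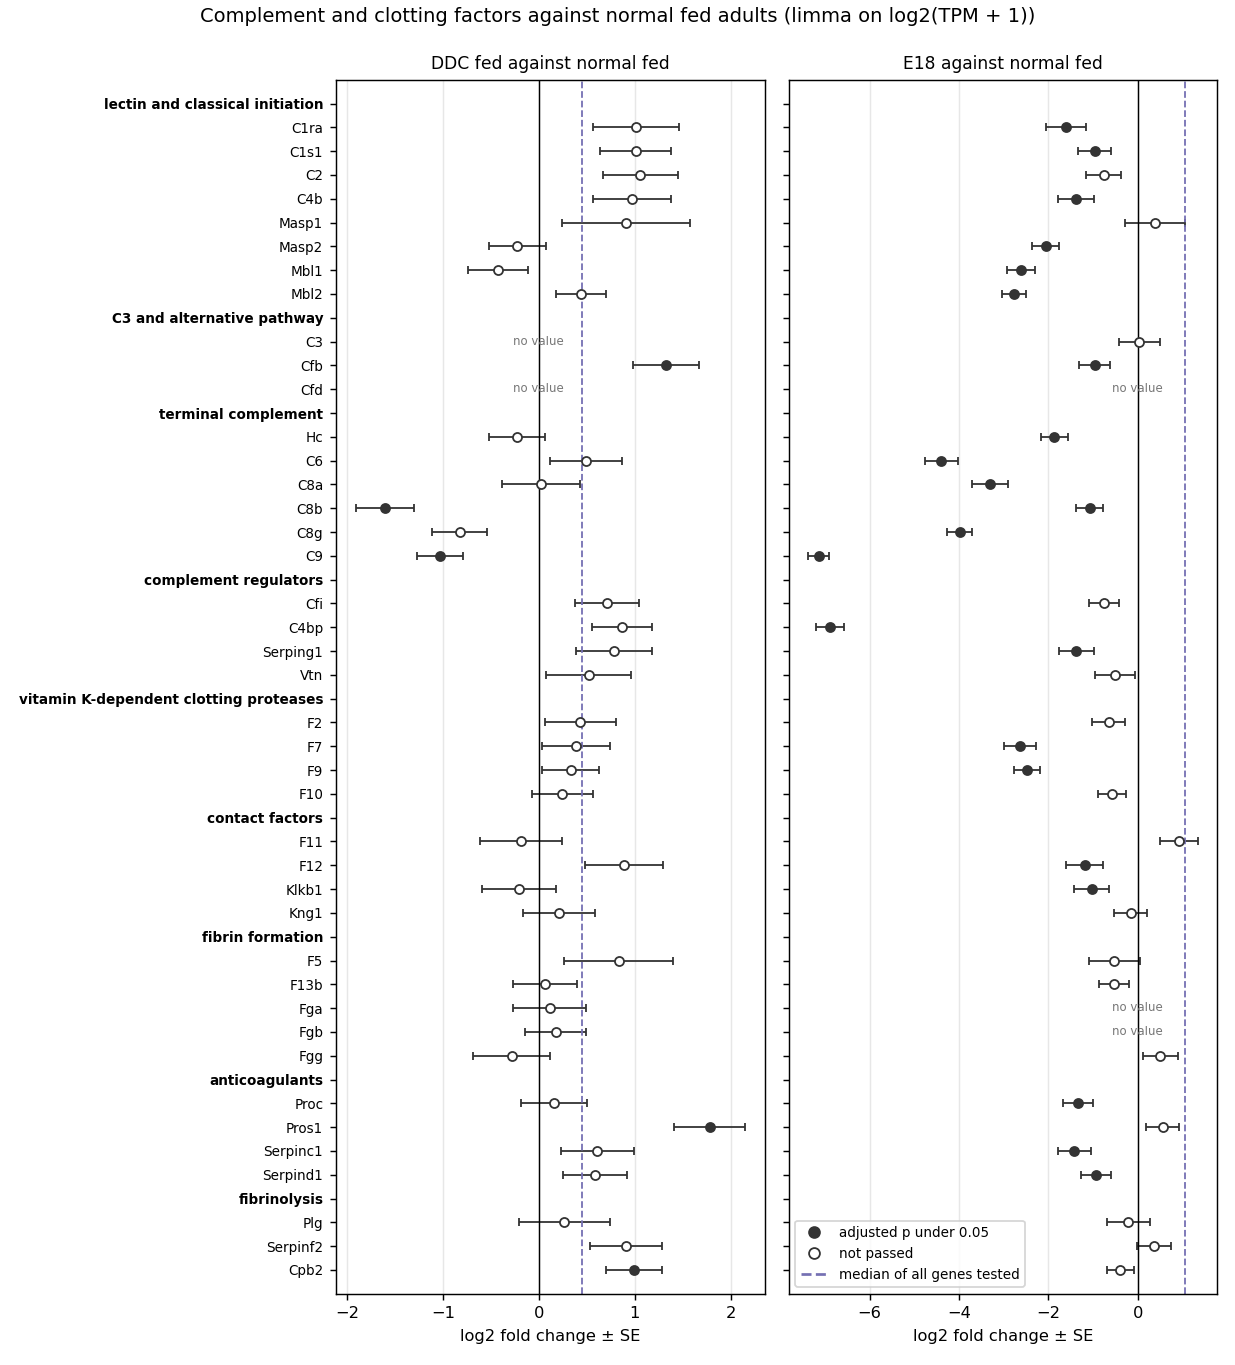
Log2 fold change ± SE of each gene by role, for DDC fed against normal fed (left) and E18 against normal fed (right), with filled circles past the adjusted threshold. At E18 C9 and C4bp stood furthest to the left, at -7.14 and -6.90. The dashed line is the median of all genes tested, and directions are relative to the TPM total. With samples scaled to the median gene plotted, 16 genes were higher and 9 lower at E18, beside 87.6% and 4.06% of all genes.

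The terminal complement genes build the membrane attack pore, and all 6 fell at E18 on the TPM scale. With samples scaled to their median gene the calls of C8b and Hc were lost, at 0.63 (adjusted p = 0.111) and -0.17 (adjusted p = 0.671). C9, the subunit that polymerizes into the ring, had 884 and 817 TPM in DDC fed samples, 12.5 and 10.2 TPM in E18 samples and 1993 and 1517 TPM in normal fed samples. The E18 samples were far below both adult groups, and the DDC fed samples were below the normal fed ones, with no overlap between any groups. The difference was -7.14 ± 0.24, adjusted p = 1.56e-06, at E18, and -1.03 ± 0.24, adjusted p = 0.015, under DDC. C6, which joins C5b first, had 309 and 260.5 TPM in DDC fed samples, 7.46 and 9.82 TPM in E18 samples and 297 and 136 TPM in normal fed samples. Both E18 samples lay below every adult sample, while the adult groups overlapped. At E18 the difference was -4.40 ± 0.37, adjusted p = 5.01e-05.

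C8 is a complex of the products of C8a, C8b and C8g. C8a had 461 and 410.1 TPM in DDC fed samples, 54 and 33 TPM in E18 samples and 625 and 291 TPM in normal fed samples. Both E18 samples were low, and the DDC fed samples lay between the normal fed ones. The difference at E18 was -3.31 ± 0.41, adjusted p = 0.000311. C8g had 494 and 469.9 TPM in DDC fed samples, 62.3 and 45.2 TPM in E18 samples and 698 and 1048 TPM in normal fed samples. Again E18 samples were lowest without overlap. Relative to normal fed adults they stood at -3.98 ± 0.28, adjusted p = 2.12e-05. C8b had 174 and 169 TPM in DDC fed samples, 312 and 197 TPM in E18 samples and 629 and 436 TPM in normal fed samples. Here the DDC fed samples were lowest, the E18 samples next and the normal fed samples highest, with no overlap. The difference was -1.61 ± 0.30, adjusted p = 0.00706, under DDC, and -1.08 ± 0.30, adjusted p = 0.0154, at E18. Under DDC C8g stood at -0.83 ± 0.28, adjusted p = 0.0595, and C8a at 0.03 ± 0.41, adjusted p = 0.981. Hc, which encodes C5, had 133 and 165 TPM in DDC fed samples, 61.6 and 35.8 TPM in E18 samples and 163 and 185 TPM in normal fed samples. Every adult sample was above the E18 samples, and the adult groups overlapped. At E18 the difference was -1.86 ± 0.29, adjusted p = 0.00107.

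The DDC calls of C8b and C9 were lost when a DDC fed sample was left out. C8b was -1.63 (adjusted p = 0.0559) without sample 0 and -1.58 (adjusted p = 0.0621) without sample 1. C9 was -1.09 (adjusted p = 0.0961) without sample 0 and -0.98 (adjusted p = 0.128) without sample 1. At E18 C8b was -0.74 (adjusted p = 0.108) without E18 sample 1.

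Because C8a and C8b lie 11130 bases apart on chromosome 4 and their proteins join in the same complex, their ratio within each sample was computed, which does not depend on the TPM total. The ratio of C8a to C8b was 2.65 and 2.43 in DDC fed samples, 0.173 and 0.168 in E18 samples and 0.994 and 0.668 in normal fed samples. It was above 2 in both DDC fed samples and under 0.2 in both E18 samples, with the normal fed samples between. The ratio of C6 to C9 was 0.35 and 0.319 in DDC fed samples, 0.598 and 0.96 in E18 samples and 0.149 and 0.0894 in normal fed samples. The ratios were chosen after the values were seen and were not tested. A ratio does not remove differences between samples that follow exon length.

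**Figure D3:**
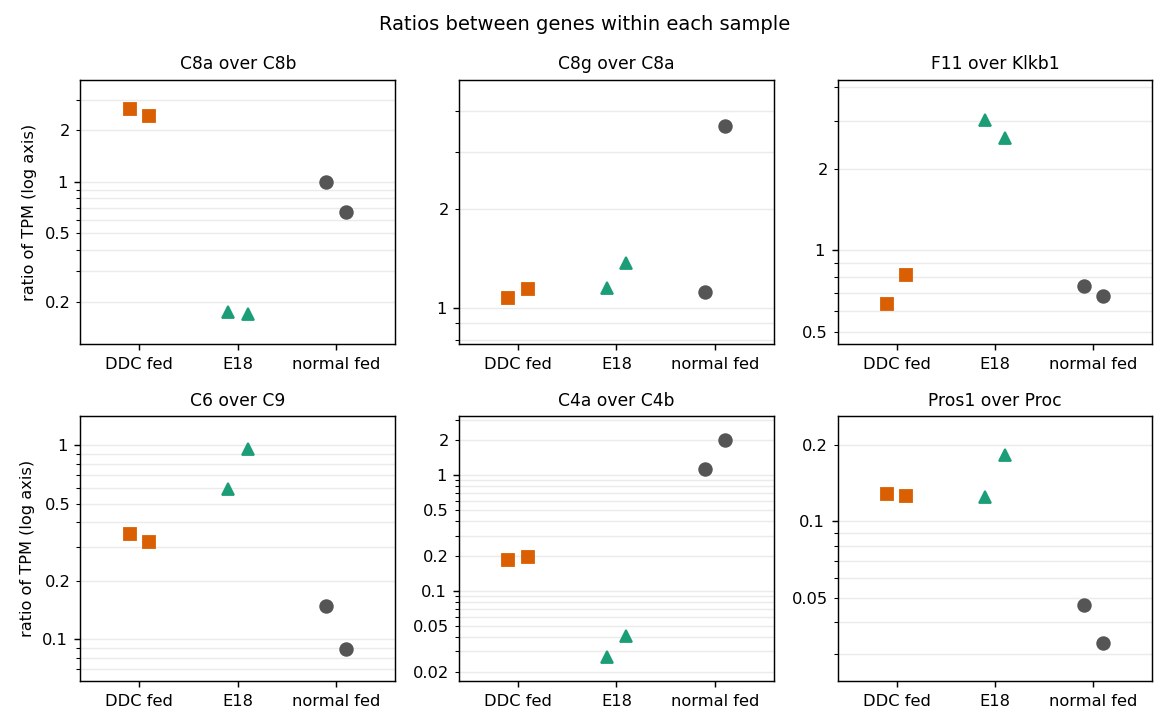
TPM ratio (log axis) of pairs of genes within each sample, 1 symbol per sample. C8a over C8b stood at 2.65 and 2.43 in DDC fed samples, 0.173 and 0.168 in E18 samples and 0.994 and 0.668 in normal fed samples.

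Of the 8 genes that start the lectin and classical pathways, 6 fell at E18 on the TPM scale, and C1ra, C1s1 and C4b were above 0 with samples scaled to their median gene, at 0.08 (adjusted p = 0.848), 0.75 (adjusted p = 0.0641) and 0.33 (adjusted p = 0.412). The call of Masp2 was lost under that scaling as well, at -0.36 (adjusted p = 0.355). The mannose-binding lectins are the sugar sensors of the lectin pathway. Mbl1 had 421 and 404 TPM in DDC fed samples, 115 and 69.4 TPM in E18 samples and 458 and 669 TPM in normal fed samples. Mbl2 had 1020.4 and 816 TPM in DDC fed samples, 114 and 83.6 TPM in E18 samples and 726 and 620.0 TPM in normal fed samples. Both were lowest at E18, with fold changes of -2.62 ± 0.32, adjusted p = 0.000287, for Mbl1 and -2.77 ± 0.26, adjusted p = 8.34e-05, for Mbl2. Masp2, the protease that cleaves C4 and C2 once a lectin has bound, had 323 and 315 TPM in DDC fed samples, 114 and 68.7 TPM in E18 samples and 434 and 321 TPM in normal fed samples. Its E18 samples were below all adult samples, with a fold change of -2.06 ± 0.30, adjusted p = 0.000703. Masp1, its partner protease, had 46.6 and 36.8 TPM in DDC fed samples, 36.5 and 22.4 TPM in E18 samples and 48 and 9.45 TPM in normal fed samples. The groups overlapped at E18, and the difference was 0.39 ± 0.67, adjusted p = 0.614.

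C1ra and C1s1 encode the proteases of the C1 complex. C1ra had 283 and 222 TPM in DDC fed samples, 48.1 and 32.6 TPM in E18 samples and 197 and 77 TPM in normal fed samples. C1s1 had 611 and 524 TPM in DDC fed samples, 176 and 117 TPM in E18 samples and 389.9 and 202 TPM in normal fed samples. C4b, a substrate of C1s, had 773 and 691 TPM in DDC fed samples, 174 and 118 TPM in E18 samples and 557 and 249 TPM in normal fed samples. In each of these the E18 samples were lowest and the DDC fed samples highest, without overlap. The E18 differences were -1.61 ± 0.45, adjusted p = 0.0141, for C1ra, -0.96 ± 0.37, adjusted p = 0.0486, for C1s1, and -1.38 ± 0.41, adjusted p = 0.0186, for C4b. Under DDC they did not pass, at 1.02 ± 0.45, adjusted p = 0.119, 1.01 ± 0.37, adjusted p = 0.0721, and 0.97 ± 0.41, adjusted p = 0.106. C2, the protease that pairs with C4b, stood at 1.06 ± 0.39, adjusted p = 0.0757, under DDC and at -0.76 ± 0.39, adjusted p = 0.116, at E18. Without E18 sample 1 the E18 values were -1.34 (adjusted p = 0.152) for C1ra, -0.67 (adjusted p = 0.291) for C1s1 and -1.10 (adjusted p = 0.168) for C4b. Without E18 sample 0 the calls of all of them were also lost, with adjusted p = 0.0722, 0.0902 and 0.0703, and C1s1 was lost without any of the samples but normal fed sample 1. C1ra, C1s1 and C4b have near-identical copies, C1rb, C1s2 and C4a, so reads may have been split between them.

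C3, the protein on which all routes converge, had 2335 and 1478 TPM in E18 samples and 2919 and 1120.0 TPM in normal fed samples, and the groups overlapped. The difference was 0.04 ± 0.46, adjusted p = 0.942, and its direction depended on the scale. It was -1.17 (adjusted p = 0.029) with median-ratio scaling and 1.75 (adjusted p = 0.000102) with samples scaled to their median gene. C3 was listed at 0 in both DDC fed samples and got no value there. Cfb, the protease of the alternative pathway, had 2973 and 2478 TPM in DDC fed samples, 702 and 441 TPM in E18 samples and 1291 and 909.8 TPM in normal fed samples. The DDC fed samples were highest and the E18 samples lowest, without overlap. The difference was 1.32 ± 0.34, adjusted p = 0.0241, under DDC, and -0.96 ± 0.34, adjusted p = 0.0385, at E18. Under DDC it was 0.65 (adjusted p = 0.212) with median-ratio scaling, and the call was lost without either DDC fed sample and without normal fed sample 1, with adjusted p = 0.167, 0.108 and 0.0638. At E18 it was 0.75 (adjusted p = 0.0847) with samples scaled to their median gene, and the call was lost without either DDC fed sample, E18 sample 1 or normal fed sample 0, with adjusted p = 0.0808, 0.0826, 0.213 and 0.104. Cfd, the protease that activates factor B and is made mainly by fat cells, was under 0.1 TPM in all samples and was not tested.

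Of the 4 complement regulators, C4bp and Serping1 fell at E18, and Serping1 was 0.34 (adjusted p = 0.416) with samples scaled to their median gene. C4bp, which binds C4b and speeds its decay, had 987 and 998 TPM in DDC fed samples, 5.25 and 2.32 TPM in E18 samples and 559.7 and 526 TPM in normal fed samples. Its E18 values were near the bottom of the range of all these genes, and the DDC fed samples were above the normal fed ones, without overlap. The difference was -6.90 ± 0.31, adjusted p = 3.11e-06, at E18 and 0.87 ± 0.31, adjusted p = 0.0673, under DDC. Serping1, the C1 inhibitor, had 1328 and 1147 TPM in DDC fed samples, 329.8 and 230.5 TPM in E18 samples and 1034 and 494 TPM in normal fed samples. The groups did not overlap. At E18 it stood at -1.37 ± 0.40, adjusted p = 0.0168, and the call was lost without either E18 sample, with adjusted p = 0.0652 and 0.15. Cfi, which cleaves C3b and C4b, stood at 0.71 ± 0.33, adjusted p = 0.135, under DDC and -0.76 ± 0.33, adjusted p = 0.0734, at E18. Vtn, vitronectin, stood at 0.52 ± 0.45, adjusted p = 0.393, and -0.52 ± 0.45, adjusted p = 0.323.

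Of the 4 vitamin K-dependent clotting proteases, F7 and F9 fell at E18, while F2 and F10 did not pass. The direction of F2 and F10 depended on the scale. With samples scaled to their median gene they were above 0, at 1.07 (adjusted p = 0.0168) and 1.14 (adjusted p = 0.00699). With median-ratio scaling they were -1.85 (adjusted p = 0.00436) and -1.77 (adjusted p = 0.00166). F7, which starts clotting with tissue factor, had 129 and 104 TPM in DDC fed samples, 16.3 and 10.9 TPM in E18 samples and 123 and 63.1 TPM in normal fed samples. F9, whose loss causes haemophilia B in humans, had 233 and 214 TPM in DDC fed samples, 39.7 and 23.9 TPM in E18 samples and 208 and 151 TPM in normal fed samples. In both the E18 samples were below every adult sample. The differences were -2.63 ± 0.36, adjusted p = 0.0005, and -2.48 ± 0.29, adjusted p = 0.000264. F2, prothrombin, had 1746 and 1607 TPM in DDC fed samples, 991 and 636 TPM in E18 samples and 1622 and 949 TPM in normal fed samples, and stood at -0.64 ± 0.37, adjusted p = 0.153. F10, whose gene lies 1498 bases from F7 on chromosome 8, had 589.9 and 534 TPM in DDC fed samples, 388 and 261 TPM in E18 samples and 595 and 377 TPM in normal fed samples, and stood at -0.57 ± 0.32, adjusted p = 0.142. The ratio of F7 to F10 was 0.218 and 0.195 in DDC fed samples, 0.042 and 0.0418 in E18 samples and 0.206 and 0.167 in normal fed samples. Under DDC the 4 genes ranged between 0.25 and 0.43, and none passed.

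The contact factors start clotting on charged surfaces and release bradykinin. F12 had 671 and 565 TPM in DDC fed samples, 180.0 and 116 TPM in E18 samples and 486 and 226 TPM in normal fed samples. DDC fed samples were highest and E18 samples lowest, without overlap. The E18 value was -1.19 ± 0.41, adjusted p = 0.0318. Klkb1, plasma prekallikrein, had 94.5 and 70.6 TPM in DDC fed samples, 55 and 38.1 TPM in E18 samples and 138 and 64.6 TPM in normal fed samples. E18 samples were lowest, and the adult groups overlapped. The E18 value was -1.03 ± 0.39, adjusted p = 0.0464. Both calls were lost when either DDC fed sample, either E18 sample or normal fed sample 0 was left out, with adjusted p between 0.0556 and 0.233 for F12 and between 0.0686 and 0.287 for Klkb1. With samples scaled to their median gene both were above 0, at 0.52 (adjusted p = 0.199) and 0.66 (adjusted p = 0.0873).

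F11, a close relative of Klkb1 that lies 4657 bases from it on chromosome 8, had 60 and 57.4 TPM in DDC fed samples, 166 and 98.9 TPM in E18 samples and 102 and 43.9 TPM in normal fed samples. E18 sample 0 was above both normal fed samples and E18 sample 1 lay between them, and the difference was 0.93 ± 0.42, adjusted p = 0.0849, the highest fold change among the 38 genes. The ratio of F11 to Klkb1 was 0.636 and 0.813 in DDC fed samples, 3.02 and 2.59 in E18 samples and 0.741 and 0.68 in normal fed samples. It was above 2 in both E18 samples and under 1 in every adult sample. Kng1, the bradykinin precursor, was among the 5 highest of the 37 genes measured in all groups, and stood at 0.21 ± 0.37, adjusted p = 0.694, under DDC and at -0.16 ± 0.37, adjusted p = 0.71, at E18.

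None of the fibrin-forming genes passed in either comparison with normal fed adults. Fgg, the gamma chain of fibrinogen, had 3347 and 3588 TPM in DDC fed samples, 7621 and 4729 TPM in E18 samples and 5008 and 3543 TPM in normal fed samples. It stood at -0.28 ± 0.40, adjusted p = 0.615, under DDC and at 0.51 ± 0.40, adjusted p = 0.279, at E18, where it was 2.23 (adjusted p = 5.98e-05) with samples scaled to their median gene. Fga and Fgb, the other chains, had 4024 and 3767 TPM and 2094 and 2042 TPM in DDC fed samples, and 5483 and 2365 TPM and 2528 and 1323 TPM in normal fed samples. The DDC fed samples lay within the normal fed range for both, and the differences were 0.11 ± 0.38, adjusted p = 0.852, and 0.18 ± 0.32, adjusted p = 0.694. Fga passed in opposite directions when a normal fed sample was left out, at 0.72 (adjusted p = 0.00659) without sample 0 and -0.49 (adjusted p = 0.039) without sample 1, and Fgb passed at 0.64 (adjusted p = 0.00755) without sample 0. Both were listed at 0 at E18 while Fgg, in the same cluster on chromosome 3, was the highest of the 37 genes there. F5, the cofactor of factor X, stood at -0.52 ± 0.57, adjusted p = 0.425, and F13b, the carrier subunit of factor XIII, at -0.54 ± 0.33, adjusted p = 0.18, at E18.

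Of the 4 anticoagulants, Pros1 rose under DDC, and Proc, Serpinc1 and Serpind1 fell at E18 on the TPM scale. With samples scaled to their median gene, which shifts all genes alike, Proc, Serpinc1 and Serpind1 were above 0. Pros1, protein S, the cofactor of protein C that endothelial cells and megakaryocytes also make, had 77.5 and 65.3 TPM in DDC fed samples, 30.9 and 29 TPM in E18 samples and 30.5 and 13 TPM in normal fed samples. Both DDC fed samples were above all others, and the E18 and normal fed samples overlapped. The difference was 1.78 ± 0.37, adjusted p = 0.0105, under DDC and 0.56 ± 0.37, adjusted p = 0.208, at E18. The DDC call was lost without DDC fed sample 0, E18 sample 0 or E18 sample 1, with adjusted p = 0.0725, 0.0662 and 0.066. Endothelial markers summed to 201 and 209 TPM in DDC fed samples, 525 and 522 TPM in E18 samples and 53.1 and 17 TPM in normal fed samples, and their part in the Pros1 result was not tested.

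Proc, protein C, had 605 and 521 TPM in DDC fed samples, 247 and 159 TPM in E18 samples and 649.5 and 389 TPM in normal fed samples. Serpinc1, antithrombin, had 5356 and 5094 TPM in DDC fed samples, 1614 and 1019 TPM in E18 samples and 4162 and 2814 TPM in normal fed samples. Serpind1, heparin cofactor II, had 759 and 693 TPM in DDC fed samples, 325 and 195 TPM in E18 samples and 593 and 392 TPM in normal fed samples. In each the E18 samples were below all adult samples. The E18 differences were -1.34 ± 0.34, adjusted p = 0.00992, for Proc, -1.42 ± 0.38, adjusted p = 0.0123, for Serpinc1, and -0.93 ± 0.33, adjusted p = 0.0384, for Serpind1. Without E18 sample 1 they were -1.02 (adjusted p = 0.0988), -1.08 (adjusted p = 0.0989) and -0.57 (adjusted p = 0.226). Serpind1 was also lost without either DDC fed sample or normal fed sample 0, with adjusted p = 0.077, 0.0781 and 0.12. The ratio of Pros1 to Proc was 0.128 and 0.125 in DDC fed samples, 0.125 and 0.183 in E18 samples and 0.047 and 0.0333 in normal fed samples.

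Among the fibrinolysis genes Cpb2, a carboxypeptidase that protects fibrin from plasmin, rose under DDC. It had 1036 and 1041 TPM in DDC fed samples, 505 and 313 TPM in E18 samples and 559 and 485 TPM in normal fed samples. The DDC fed samples were above all others, and the E18 and normal fed samples overlapped. The difference was 0.9954 ± 0.29, adjusted p = 0.0375, under DDC and -0.39 ± 0.29, adjusted p = 0.265, at E18. With median-ratio scaling the DDC value was 0.32 (adjusted p = 0.459), and the call was lost without either DDC fed sample or normal fed sample 1, with adjusted p = 0.187, 0.19 and 0.0786. Plg, plasminogen, stood at 0.26 ± 0.47, adjusted p = 0.696, and -0.21 ± 0.47, adjusted p = 0.705. Serpinf2, its inhibitor antiplasmin, stood at 0.91 ± 0.38, adjusted p = 0.101, and 0.37 ± 0.38, adjusted p = 0.402.

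**Figure D4:**
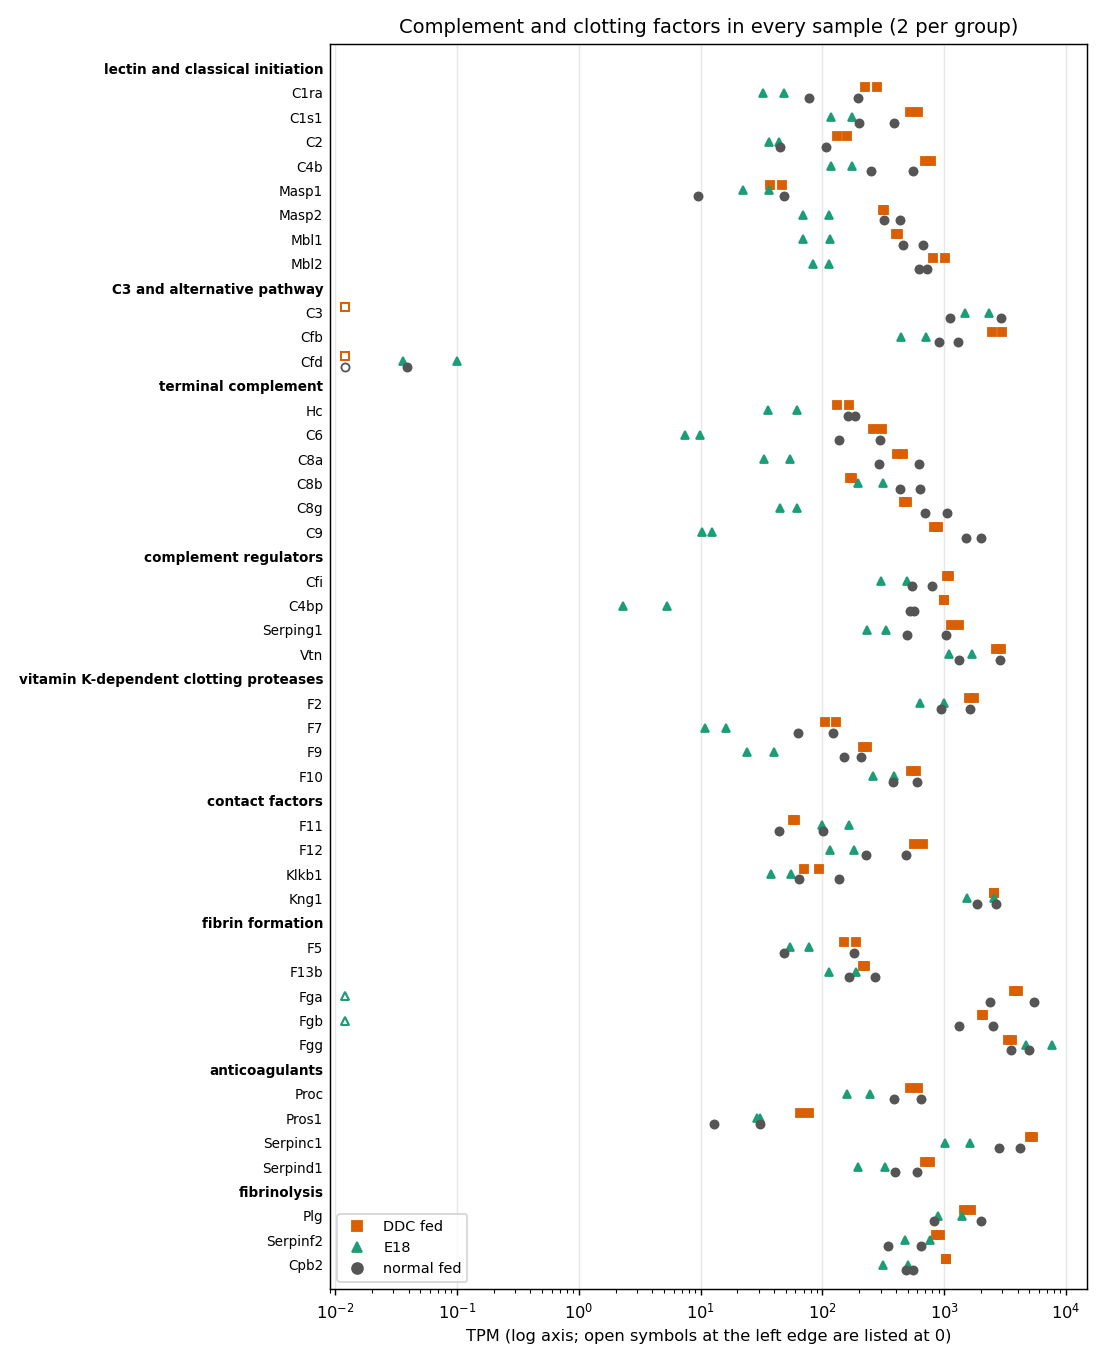
TPM (log axis) of each of the 41 genes in every sample, by role, with open symbols for a value listed at 0. The E18 samples of C9, C6 and C4bp lie below 13 TPM, while the adult samples of these genes lie above 100 TPM.

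The genes measured in all groups, 37 in number, were also ranked by TPM within each sample. Ranks do not depend on a factor common to a sample, but differences that follow exon length can change them. Fgg, Serpinc1, Kng1 and Vtn were among the 5 highest in every sample. C9 ranked 14 and 13 in DDC fed samples, 35 in both E18 samples and 6 and 4 in normal fed samples. C4bp ranked 12 and 11 in DDC fed samples, last of 37 in both E18 samples and 19 and 13 in normal fed samples. C8b ranked 30 and 29 in DDC fed samples, 14 and 13 in E18 samples and 15 and 16 in normal fed samples. F11 ranked 36 in both DDC fed samples, 20 in both E18 samples and 35 in both normal fed samples. Serpinf2 ranked 13 and 12 in DDC fed samples, 7 in both E18 samples and 14 and 20 in normal fed samples, so the normal fed samples differed more from each other than sample 0 did from the DDC fed ones.

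Set directly against E18, 25 of 37 genes were higher and 0 lower in DDC fed samples. Of all genes tested 17.7% were higher and 46.9% lower, and of those with a mean of 10 TPM or more 21.2% were higher and 37.9% lower. Both DDC fed samples were above both E18 samples in 33 of the 37 genes and below in 3, beside 28.3% above and 61.7% below among all genes. The median was 1.64 for these genes and -0.54 for all genes. This comparison shares samples with the others and so is no independent evidence. C4bp stood at 7.77 ± 0.31, adjusted p = 3.51e-06, C9 at 6.11 ± 0.24, adjusted p = 3.22e-06, and C6 at 4.90 ± 0.37, adjusted p = 4.92e-05. F11 had the lowest value, -1.11 ± 0.42, adjusted p = 0.0547, followed by Fgg at -0.79 ± 0.40, adjusted p = 0.123, and C8b at -0.53 ± 0.30, adjusted p = 0.167. None of these passed here, but each passed under some of the alternatives. F11 passed as lower with only the compared groups (adjusted p = 0.00972, beside 55.1% of all genes lower). It also passed with quantile normalization (adjusted p = 0.0288) and without genes with a listed zero (adjusted p = 0.0346). Fgg passed without a variance trend (adjusted p = 0.0499) and C8b with quantile normalization (adjusted p = 0.0488). Without E18 sample 1 fewer were higher, among these genes and among all genes. With samples scaled to their median gene 8 were higher and 12 lower, beside 4.2% higher and 86.6% lower among all genes. There Hc, the gene at the median fold change of 1.64, moved to -0.35, so that scaling did not centre these fold changes at 0.

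Other genes of the pathways were taken from lists by function, and their counts stand beside 34.3% higher and 3% lower under DDC and 63% higher and 12.7% lower at E18 among all genes tested. Of 16 other secreted complement proteins measured, 9 rose (56.2%) and 1 fell (6.25%) under DDC, and 7 rose (43.8%) and 6 fell (37.5%) at E18. The ficolin Fcnb is not in these counts. It had 329 and 403 TPM at E18, was listed at 0 in both normal fed samples and was under 0.1 TPM in both DDC fed samples. Whether that listed 0 is a failed estimate or true absence was not tested. The chains of C1q, which macrophages make, were higher in both groups. C1qb had 124 and 156 TPM in DDC fed samples, 189 and 277 TPM in E18 samples and 16.5 and 12.3 TPM in normal fed samples, with 3.20 ± 0.27, adjusted p = 0.000301, under DDC and 3.91 ± 0.27, adjusted p = 1.88e-05, at E18. C1qc stood at 3.19 ± 0.30, adjusted p = 0.000421, and the collectin Colec11 at 3.35 ± 0.29, adjusted p = 0.000303, under DDC. At E18 the ficolin Fcna stood at 4.40 ± 0.23, adjusted p = 4.98e-06, and properdin, Cfp, at 4.10 ± 0.24, adjusted p = 7.86e-06. The part of the macrophage markers, which were higher in both groups than in normal fed samples, was not tested.

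C4a, the close copy of C4b, is annotated as a processed transcript and not as protein coding, though it is counted above with the secreted proteins. It had 142 and 136 TPM in DDC fed samples, 4.67 and 4.76 TPM in E18 samples and 624 and 497 TPM in normal fed samples. The groups did not overlap, with normal fed samples highest and E18 samples lowest. It stood at -1.9974 ± 0.20, adjusted p = 0.000505, under DDC and at -6.61 ± 0.20, adjusted p = 1.4e-06, at E18. The ratio of C4a to C4b was 0.183 and 0.197 in DDC fed samples, 0.0269 and 0.0404 in E18 samples and 1.12 and 2 in normal fed samples, although how reads were split between the copies is unknown. The factor H related gene Cfhr2 stood at -2.93 ± 0.28, adjusted p = 9.46e-05, at E18. Clusterin, Clu, an inhibitor of the membrane attack pore, had 8991 and 7665 TPM in DDC fed samples, 169.6 and 132 TPM in E18 samples and 1744 and 712 TPM in normal fed samples. The DDC fed samples were highest and the E18 samples lowest, without overlap. It stood at 2.90 ± 0.45, adjusted p = 0.00301, under DDC and at -2.89 ± 0.45, adjusted p = 0.000962, at E18.

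Of 12 complement receptors and membrane regulators measured, 10 rose (83.3%) and 0 fell under DDC, and 9 rose (75%) and 2 fell (16.7%) at E18, beside 63% and 12.7% of all genes. Under DDC these were led by Vsig4, a receptor of Kupffer cells (3.02 ± 0.22, adjusted p = 0.000186), the integrin chain Itgb2 (3.05 ± 0.24, adjusted p = 0.000215) and the C5a receptor C5ar1 (2.53 ± 0.20, adjusted p = 0.000236). At E18 Itgam, the other chain of complement receptor 3, stood at 6.39 ± 0.19, adjusted p = 1.39e-06, Itgb2 at 6.10 ± 0.24, adjusted p = 1.95e-06, and C5ar1 at 4.61 ± 0.20, adjusted p = 2.82e-06. Cd59a and Cd59b, which block the membrane attack pore, stood at -0.80 ± 0.20, adjusted p = 0.00955, and -0.97 ± 0.26, adjusted p = 0.0124, and both were above 0, at 0.89 and 0.52, with samples scaled to the median complement and clotting gene. Without E18 sample 0 their adjusted p was 0.0581 and 0.0996.

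Of 15 other secreted clotting and fibrinolysis proteins, 4 rose (26.7%) and 1 fell (6.67%) under DDC, and 8 rose (53.3%) and 4 fell (26.7%) at E18. The shares that rose were below those of all genes, 34.3% and 63%. Plat, tissue plasminogen activator, had 3.12 and 4.14 TPM in DDC fed samples and was listed at 0 in both normal fed samples. Tfpi, the tissue factor pathway inhibitor, stood at 1.86 ± 0.25, adjusted p = 0.00178, under DDC. Plau, urokinase, had 1.35 and 1.91 TPM in DDC fed samples, 8.79 and 9.36 TPM in E18 samples and 0.183 and 0.0503 TPM in normal fed samples. Under DDC it stood at 1.23 ± 0.17, adjusted p = 0.0018, and the call was lost with samples scaled to the median complement and clotting gene, at 0.86 (adjusted p = 0.0565). Serpine2, a thrombin inhibitor of cell surfaces, was the gene that fell, at -2.92 ± 0.43, adjusted p = 0.00249, with 1.83 and 1.77 TPM in DDC fed samples and 33.5 and 11.9 TPM in normal fed samples. At E18 A2m, a broad protease inhibitor, had 924 and 587 TPM, while it was under 0.1 TPM in every adult sample. F13a1 and Vwf, which megakaryocytes make, stood at 6.37 ± 0.18, adjusted p = 1.39e-06, and 5.44 ± 0.18, adjusted p = 1.51e-06. Megakaryocyte and platelet markers summed to 2216 and 2470 TPM at E18 and to under 24 TPM in each adult sample. Their part, like that of the endothelial and macrophage markers given above, was not tested. Hrg stood at -2.36 ± 0.40, adjusted p = 0.00145, Serpina10, the protein Z-dependent inhibitor, at -1.62 ± 0.29, adjusted p = 0.00194, and Kng2 at -0.9995 ± 0.30, adjusted p = 0.0185. With samples scaled to the median complement and clotting gene, Serpina10 and Kng2 were above 0, at 0.08 and 0.71. Kng2 was 0.105 in adjusted p without E18 sample 1 and 0.0514 without normal fed sample 0.

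Of 8 clotting receptors and cell surface factors measured, 5 rose (62.5%) and 0 fell under DDC, and 7 rose (87.5%) and 0 fell at E18, beside 34.3% and 63% of all genes that rose. Stellate and fibroblast markers summed to 367 and 334 TPM in DDC fed samples, 311 and 281 TPM in E18 samples and 25.9 and 12.6 TPM in normal fed samples, and their part, like that of the endothelial markers given above, was not tested. Thrombomodulin, Thbd, stood at 2.03 ± 0.21, adjusted p = 0.000547, the urokinase receptor Plaur at 2.16 ± 0.24, adjusted p = 0.000759, and the thrombin receptor F2r at 2.96 ± 0.40, adjusted p = 0.00175, under DDC. At E18 Plaur stood at 6.27 ± 0.24, adjusted p = 1.91e-06. The receptors F2rl2 and F2rl3 had 25.5 and 27 TPM and 12.6 and 13.2 TPM at E18 and were listed at 0 in both normal fed samples. Of the 6 genes of the vitamin K cycle and of factor secretion, 1 rose under DDC. It was Nqo1, a quinone reductase, with 64.5 and 66.4 TPM in DDC fed samples, 5.25 and 4.82 TPM in E18 samples and 3.26 and 3.39 TPM in normal fed samples, and 3.94 ± 0.19, adjusted p = 3.59e-05. At E18 2 rose and 2 fell. Vkorc1, the target of warfarin, stood at -1.23 ± 0.24, adjusted p = 0.00312, and Mcfd2, which exports factors V and VIII with Lman1, at -0.74 ± 0.26, adjusted p = 0.0339, and both were above 0, at 0.48 and 0.97, with samples scaled to the median complement and clotting gene. Vkorc1l1 and Nqo1 stood at 0.65 ± 0.20, adjusted p = 0.0216, and 0.48 ± 0.19, adjusted p = 0.0499, and both were below 0 with median-ratio scaling, quantile normalization and exon-length correction. The calls of Mcfd2, Vkorc1l1 and Nqo1 were each lost without DDC fed sample 0, DDC fed sample 1 or E18 sample 1, those of Vkorc1l1 and Nqo1 also without E18 sample 0, and that of Mcfd2 also without normal fed sample 1, with adjusted p between 0.0587 and 0.168.

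**Figure D5:**
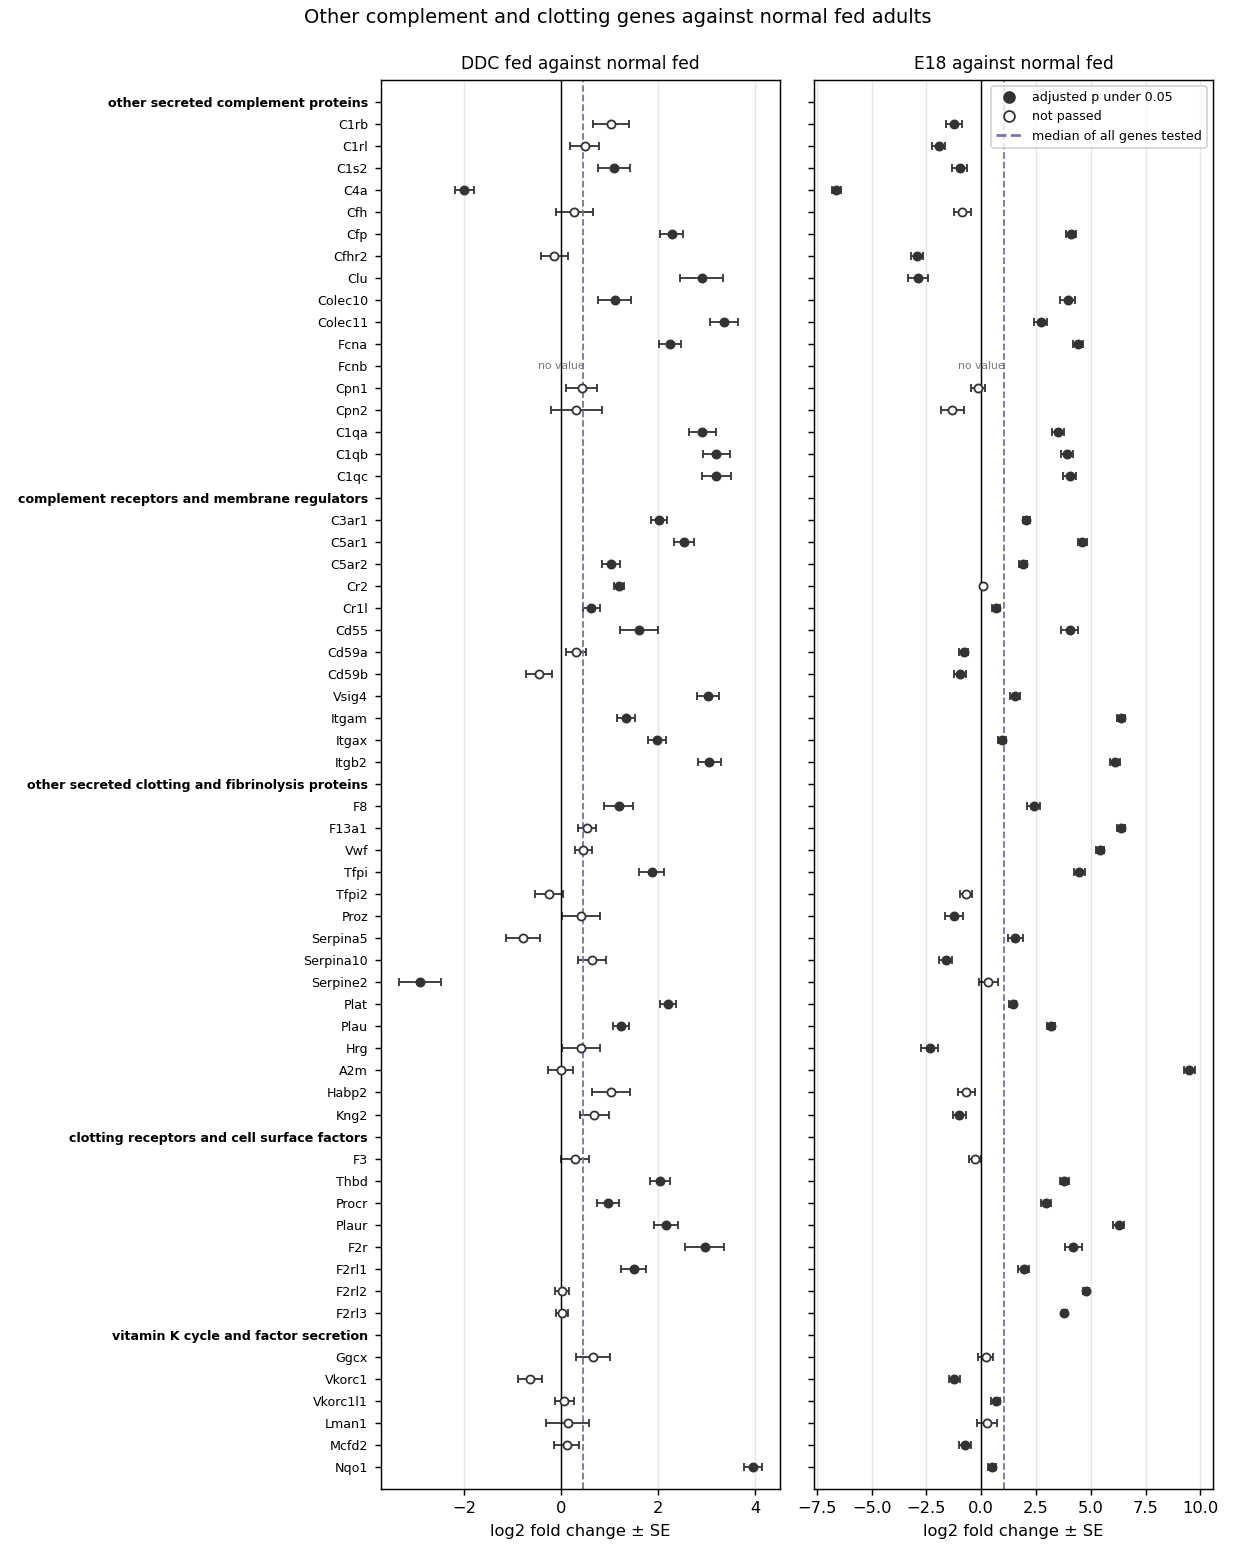
Log2 fold change ± SE of the other complement and clotting genes by list, for DDC fed against normal fed (left) and E18 against normal fed (right), with filled circles past the adjusted threshold. The C1q chains, Itgb2 and C5ar1 lie to the right in both panels, and C4a lies to the left at -1.997 under DDC and -6.61 at E18.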

How the data were processed

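The authors deposited a table of TPM values per gene, 6 columns that each sum to 1000000, for hepatocyte RNA in 3 groups of 2. The submitters' processing notes name the aligner STAR 2.4.2a, Cuffdiff 2.2.1, HTSeq and DESeq2, besides Picard 1.119, Trimmomatic and bcl2fastq 2.17.1.14, and the mouse build GRCm38. Which of them produced the TPM values is not stated there. Without counts, depth is unknown and precision rests on 2 samples per group. Columns are numbered 0 and 1 and titles 1 and 2, so columns were mapped to groups only.

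Gene names came from GENCODE M21 (48053 of 48432 matched), promoters from RefSeq. Genes reaching 1 TPM in 2 or more samples were tested on log2(TPM + 1) with limma 3.58.1 in R 4.3.3, 1 mean per group over all 6 samples, a variance trend, 3 residual degrees of freedom, two-sided p, Benjamini-Hochberg adjustment over all genes and a threshold of 0.05. The fit was tested on simulated data. A gene at 0 in both samples of a compared group and at 100 TPM or more elsewhere got no value. Genes past the threshold against normal fed adults are given in every sample, and up to 3 per other list and direction by adjusted p. Members and lists were chosen with earlier results of these data known. A pair of genes of the other lists is not reported here and is not in their counts.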

Additional observations from a re-analysis of the deposited data

How the results depend on the processing

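The alternatives were other pseudocounts (0.1 and 5), filters, scalings and variance settings, a fold change of at least 2, the column number as a term, and leaving out each sample. Exon-length correction and scaling to the median complement and clotting gene were added after the data were seen. Counts below are higher, then lower, in DDC fed against normal fed (3 and 2 as reported), E18 against normal fed (0 and 22) and DDC fed against E18 (25 and 0). Shares of all genes tested follow in the same order, against 34.3% and 3%, 63% and 12.7%, and 17.7% and 46.9% as reported. No filter gave 0 and 2, 0 and 14, 23 and 0 (all genes 15.9% and 1.56%, 46.9% and 7.26%, 10.3% and 34.9%). Median-ratio scaling gave 1 and 4, 0 and 33, 31 and 0 (all genes 20.6% and 11.6%, 37.8% and 31.9%, 27.9% and 34%). Exon-length correction gave 1 and 3, 0 and 32, 30 and 0 (all genes 17.1% and 12.7%, 33.5% and 33.5%, 31.2% and 32.8%). Quantile normalization gave 4 and 2, 0 and 21, 26 and 2 (all genes 14.7% and 14.4%, 31.8% and 36.7%, 32.2% and 31.3%). Rescaling without the 50 highest genes and the erythroid markers gave 2 and 3, 0 and 25, and 26 and 0. There the shares of all genes were 29.4% and 3.91%, 58.1% and 15.5%, and 18.9% and 45.8%. Leaving out genes with a listed zero gave 2 and 3, 0 and 18, and 24 and 1. In that setting the shares were 29.6% and 3.16%, 65.3% and 11.5%, and 15.1% and 51.9%. Only the compared groups gave 2 and 1, 0 and 17, 29 and 1 (all genes 26.5% and 2.23%, 59.1% and 11.1%, 23% and 55.1%). No variance trend gave 3 and 2, 0 and 21, 26 and 1 (all genes 33.5% and 2.93%, 63.2% and 12.8%, 17.9% and 47%). With a fold change of at least 2 they were 2 and 2, 0 and 19, and 25 and 0. Here the shares were 22.1% and 2.02%, 51.7% and 9.29%, and 12.7% and 34.8%. A replicate block gave 10 and 2, 1 and 24, 29 and 1 (all genes 35.8% and 3.41%, 63.9% and 13.4%, 18.8% and 47.4%). The differences between columns 1 and 0 correlated across genes at 0.0605, 0.233 and 0.139 between pairs of groups, so the numbers were not taken to pair the samples. Leaving out each sample in turn gave 0 to 18 higher and 0 to 3 lower, 0 to 3 higher and 11 to 29 lower, and 14 to 29 higher and 0 to 1 lower. Where 1 sample remained in a group, the spread came from the other groups.

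Scaling to the median gene, which moves the median of all genes to 2.503 for E18 against normal fed and to -2.27 for DDC fed against E18, gave 1 and 2, 16 and 9, and 8 and 12. The shares of all genes were 15.3% and 2.92%, 87.6% and 4.06%, and 4.2% and 86.6%. This scaling turned the sign of 39 fold changes. It shifts all genes of a sample by the same factor, so a turned sign is no separate evidence about that gene. For E18 against normal fed these were C1ra 0.0763, C1s1 0.75, C2 0.92, C4b 0.33, C8b 0.63, Cfb 0.75, Cfi 0.96, Cpb2 1.32, F10 1.14, F12 0.52, F13b 1.17, F2 1.07, F5 1.17, Klkb1 0.66, Kng1 1.55, Plg 1.51, Proc 0.37, Serpinc1 0.30, Serpind1 0.78, Serping1 0.34 and Vtn 1.20. For DDC fed against E18 they were C1s1 -0.0281, C2 -0.16, Cfi -0.54, Cpb2 -0.62, F10 -1.19, F13b -1.40, F2 -0.93, Hc -0.35, Klkb1 -1.16, Kng1 -1.64, Masp1 -1.44, Masp2 -0.16, Plg -1.53, Proc -0.50, Pros1 -0.75, Serpind1 -0.48, Serpinf2 -1.46 and Vtn -0.97. C3 at E18 was -1.17 with median-ratio scaling and with exon-length correction, and 1.75 (adjusted p = 0.000102) with samples scaled to their median gene, against 0.04 as reported. That scaling also ended the E18 calls of Hc, at -0.17, and Masp2, at -0.36. Fga under DDC was -0.49 (adjusted p = 0.039) without normal fed sample 1 and 0.72 (adjusted p = 0.00659) without normal fed sample 0, both past the threshold. Of the reported calls, 9 of 22 at E18, 8 of 25 for DDC fed against E18 and 0 of 5 under DDC held under all 20 alternatives. Which scale is right was not tested, and with 2 samples per group and no counts the counting error of low values is unknown.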
